A study of Mus musculus with 36 samples.

Results

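The genes described here are 8 regulators of cytokine mRNA decay, taken by gene name from the count and TPM files, TPM being a level per transcript length and library size: *Zfp36*, *Zfp36l1*, *Zfp36l2*, *Zc3h12a*, *Rc3h1*, *Rc3h2*, *Elavl1* and *Hnrnpd*. All 8 of 8 were found among the 53421 genes of the count file, and all 8 passed the filter on low counts in every fit over time. The cells were a conditionally immortalised mouse line of fibroblast-like chondrocytes. They were wild type and were transfected with 50 nM of a pool of non-targeting siRNA (NT) or with a pool against *Ift88* (IFT88siRNA), a gene needed for transport along the primary cilium. Both groups were then given IL-1β, an inflammatory cytokine, at 10 ng/ml and collected 1, 2, 4, 8 or 24 h later, besides a collection without IL-1β called 0 h. The siRNA dose is that of the labels, and the study's methods give a lower one. Each of the 12 conditions had 3 replicates, which makes 36 libraries of poly(A) RNA. No unstimulated library was taken after 0 h, so the effects of IL-1β and of time in culture cannot be told apart. Nothing in the labels says that replicates were separate cultures, so p-values measure the spread between these libraries, which may be technical.

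Many cytokine transcripts carry AU-rich elements or stem-loops in their 3′ untranslated region (UTR), and RNA-binding proteins that read these elements set how long the mRNA lasts. The tristetraprolin family (*Zfp36*, *Zfp36l1* and *Zfp36l2*) binds AU-rich elements and recruits the deadenylase that removes the poly(A) tail. Regnase-1 (*Zc3h12a*) is an endonuclease and the Roquin proteins (*Rc3h1* and *Rc3h2*) recruit decay enzymes, both acting through stem-loops. HuR (*Elavl1*) binds AU-rich elements and is best known for stabilising transcripts, and AUF1 (*Hnrnpd*) binds the same kind of element and can favour decay. The libraries measure transcripts of these genes and not the amount or activity of the proteins.

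Total counts per library were from 19337022 to 38304127, with medians of 21672803.5 in NT and 25873754 in IFT88siRNA. *Ift88*, the siRNA target, was at 5.83 to 10.2 CPM (counts scaled to library size) in the 18 NT libraries and at 1.43 to 3.10 CPM in the 18 IFT88siRNA libraries, with no overlap. Its log2 difference was between −2.12 and −1.47 at the 6 time points (adjusted p at most 0.00189, edgeR). The summed TPM of 8 fibroblast markers was 1060 to 1590, that of 7 chondrocyte markers 14.7 to 57.3 and that of 6 macrophage and leukocyte markers 7.18 to 15.1. Among the chondrocyte markers, median TPM was 16.1 for *Comp*, 11.6 for *Sox9* and 3.15 for *Col2a1*, each found in every library. It was 0.172 for *Matn3*, 0.122 for *Matn1* and 0.0444 for *Acan*, and *Col9a1* was listed at 0 in 25 libraries. Of the macrophage and leukocyte markers, *Cd68* and *Lyz2* had medians of 6.66 and 2.52. The medians of *Ptprc*, *Adgre1*, *Csf1r* and *Itgam* were at most 0.0918.

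All the genes but *Rc3h1* lie on the minus strand, in GRCm38 coordinates. *Zfp36* is at chr7:28376784-28380253, *Zfp36l1* at chr12:80107754-80113013, *Zfp36l2* at chr17:84183931-84187947 and *Zc3h12a* at chr4:125118423-125127840. *Rc3h1* is at chr1:160906418-160974978, *Rc3h2* at chr2:37370069-37422903, *Elavl1* at chr8:4285382-4325413 and *Hnrnpd* at chr5:99955935-99978938. The lincRNA gene Gm26669, on the opposite strand, shares 1672 exonic bases with *Zfp36l1*, which is 55.9% of the exonic length of *Zfp36l1*. With counting that ignores strand, reads from this stretch cannot be assigned to 1 of the genes, so the *Zfp36l1* count rests on the remainder of the gene. Gm26669 itself had 1 to 17 counts per library. For the other members the shared exonic length was at most 5.24%.

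The transcripts of several of these regulators hold AU-rich motifs themselves, which is why their sites are shown. The heptamer TATTTAT was searched on the transcript strand of the longest annotated 3′ UTR of each protein-coding gene (GENCODE vM21). The longer nonamer TTATTTATT contains it and was searched likewise. *Zfp36*, *Zfp36l1* and *Zfp36l2* each held 3 heptamers, of which 1 lay in a nonamer, in 3′ UTRs of 774, 1835 and 1822 bases. *Elavl1* held 8 heptamers, each within a nonamer and all in a single AT-rich stretch, in 4218 bases. *Rc3h2* held 3 heptamers in 5331 bases and *Rc3h1* held 2 in 7181, each with 1 nonamer. *Zc3h12a* (856 bases) and *Hnrnpd* (5429 bases) held none. Over 21037 genes with a median 3′ UTR of 960 bases, 27.6% held a heptamer, 7.65% held a nonamer and 4.14% held 3 or more heptamers. Per kilobase the mean of these genes was 0.328 heptamers, against 3.88 for *Zfp36*, 1.63 for *Zfp36l1*, 1.65 for *Zfp36l2* and 1.9 for *Elavl1*. *Rc3h2* had 0.563 and *Rc3h1* 0.279, the latter below that mean. The first nonamer of each tristetraprolin family member is given 5′ to 3′ in 28 bases, with the motif in capitals, at chr7:28376951-28376978, chr12:80108167-80108194 and chr17:84184914-84184941 on the minus strand. The *Elavl1* site is at chr8:4285788-4285815 on the minus strand and is the first of its 8.
Zfp36: atgacgactTTATTTATTgtattaagat
Zfp36l1: actgttggaTTATTTATTttagaaattc
Zfp36l2: ctatttaacTTATTTATTatcttgtgaa
Elavl1: tcatgaaaaTTATTTATTtatttattta

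The 250 bases before the annotated start site were available from RefSeq (GRCm38.p6) for 7 of the 8 members. They are shown for *Zfp36l1* and *Zc3h12a*, which rose with IL-1β and stayed up, with motif matches in capitals. The *Zfp36* window is not shown because a longer GENCODE transcript counts it as 5′ UTR. Both strands were searched for the κB motif, the AP-1 motif TGANTCA, the cyclic AMP response element TGACGTCA, the EGR motif GCGNGGGCG and the CArG box, the site of serum response factor. Among 32851 windows of the same length, 3.90% held the κB motif, 6.75% AP-1, 1.55% the cyclic AMP element, 4.70% EGR and 1.47% the CArG box. *Zfp36* held an EGR match from −105 and a CArG match from −58 relative to the start. *Zfp36l1* held an AP-1 match from −129, and *Rc3h1*, which is not shown, held one from −133. The windows of *Zc3h12a*, *Rc3h2*, *Elavl1* and *Hnrnpd* held no match, which says only that these letters are absent from these windows. The windows shown are chr12:80113014-80113263 and chr4:125127882-125128131, each read on the minus strand.
Zfp36l1: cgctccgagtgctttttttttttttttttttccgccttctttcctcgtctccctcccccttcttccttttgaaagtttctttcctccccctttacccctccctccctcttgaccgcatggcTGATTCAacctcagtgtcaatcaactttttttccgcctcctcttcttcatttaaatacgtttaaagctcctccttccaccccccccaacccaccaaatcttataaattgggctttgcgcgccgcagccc
Zc3h12a: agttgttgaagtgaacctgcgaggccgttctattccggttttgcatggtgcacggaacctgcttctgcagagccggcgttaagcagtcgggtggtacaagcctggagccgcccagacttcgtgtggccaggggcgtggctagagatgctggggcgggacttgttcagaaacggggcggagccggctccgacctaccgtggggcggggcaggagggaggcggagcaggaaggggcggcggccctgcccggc

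Which of the regulators responded to IL-1β was asked first in NT cells. Of the 8 genes, 4 rose past both thresholds (adjusted p under 0.05 for the 5 time points together, and over 1.5-fold at 1 or more of them): *Zfp36*, *Zfp36l1*, *Zfp36l2* and *Zc3h12a*. *Rc3h1*, *Rc3h2*, *Elavl1* and *Hnrnpd* also had adjusted p-values under 0.05, as did 88.4% of all genes tested, but stayed within 1.5-fold. None fell past both thresholds. Over all 16048 genes tested, 50.0% passed the same rule in either direction, so a count of 4 of 8 is at the background. The median of the largest log2 change of each gene was 0.67 over the members and −0.21 over all genes tested. At the single time points in order, 4, 4, 4, 3 and 2 members were called higher, against 9.22%, 13.0%, 16.3%, 11.8% and 6.61% of all genes. No member was called lower, against 9.45%, 14.3%, 12.4%, 7.87% and 9.71% of all genes. Below, libraries after IL-1β are described as above, below or apart from those at 0 h. The share of all genes for which this was so was not counted.

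**Figure D1:**
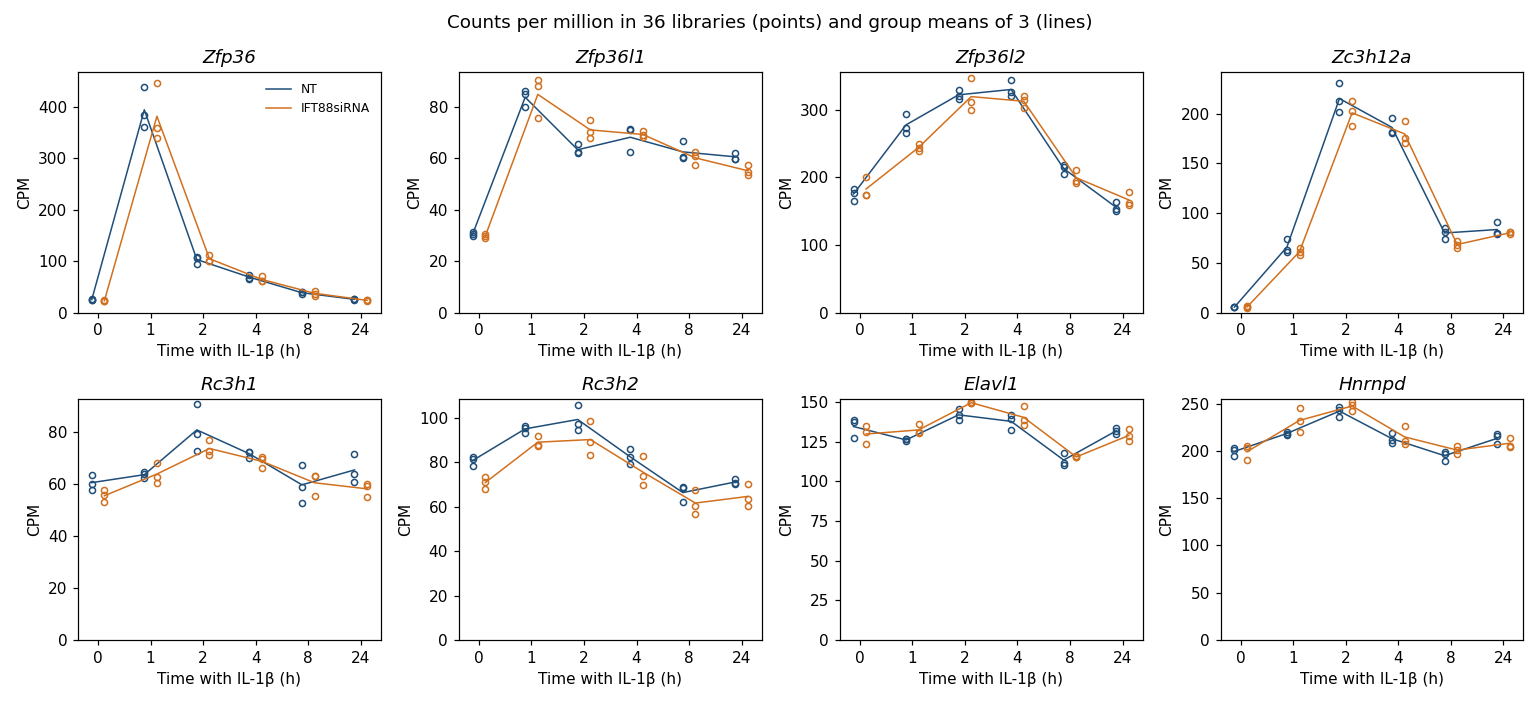
CPM (TMM scaling, linear axes from 0) of the 8 regulators at each time with IL-1β, with times drawn as evenly spaced categories. Points are single libraries and lines join the means of 3 NT (blue) or 3 IFT88siRNA (orange) libraries: *Zfp36* peaks at 1 h, *Zc3h12a* at 2 h, and the lower row moves little.

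*Zfp36*, which encodes tristetraprolin, gave the sharpest early peak. In NT libraries it was at 25.4, 26.4 and 24.2 CPM at 0 h, 384, 439.9 and 360.5 at 1 h, 107, 94.6 and 109 at 2 h, 67.8, 65.1 and 74.2 at 4 h, 39.7, 37.1 and 39.5 at 8 h, and 24.1, 27.0 and 26.4 at 24 h. In IFT88siRNA it was at 22.5, 24.8 and 21.8 CPM at 0 h, 339, 447 and 360.1 at 1 h, 101, 101 and 112 at 2 h, 60.6, 61.8 and 71.0 at 4 h, 37.1, 33.1 and 42.7 at 8 h, and 23.96, 24.3 and 23.5 at 24 h. In both groups every library from 1 to 8 h lay above those at 0 h, and the libraries at 24 h were back among or next to them. On the log2 scale, *Zfp36* in NT had risen by 3.96 ± 0.07 (SE) after 1 h, which is 15.6-fold (edgeR adjusted p = 4.65e-23), 2.02 at 2 h, 1.45 at 4 h and 0.62 at 8 h. At 24 h it was 0.03 ± 0.08 (adjusted p = 0.789), with a 95% interval from −0.14 to 0.20, and its sign turned with upper-quartile scaling, library totals and TPM. The call at 8 h was 1.53-fold and depended on scaling, since the log2 change there was 0.57 with upper-quartile scaling, 0.53 with library totals and 0.48 in TPM, each under 1.5-fold.

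*Zfp36l1* rose within 1 h and stayed up. In NT libraries it was at 31.2, 30.4 and 29.8 CPM at 0 h, 86.1, 79.7 and 85.0 at 1 h, 62.2, 61.9 and 65.6 at 2 h, 70.7, 62.3 and 71.1 at 4 h, 60.5, 60.1 and 66.6 at 8 h, and 59.6, 59.7 and 62.1 at 24 h. No library after IL-1β overlapped those at 0 h. In IFT88siRNA *Zfp36l1* was at 30.4, 29.6 and 28.9 at 0 h, 75.6, 88.1 and 90.4 at 1 h, 70.2, 67.9 and 74.7 at 2 h, 70.6, 68.0 and 68.8 at 4 h, 60.7, 62.2 and 57.2 at 8 h and 54.5, 57.4 and 53.3 at 24 h, in CPM, again with no stimulated library as low as those at 0 h. Its log2 change in NT was 1.45 ± 0.06 at 1 h and 0.99 ± 0.06 at 24 h (edgeR adjusted p = 1.09e-16 and 2.12e-13). In TPM the mean rose from 39.5 ± 0.27 (SD, n = 3) at 0 h to 91.9 ± 2.8 at 1 h and 71.1 ± 2.3 at 24 h.

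*Zfp36l2*, the family member with the highest resting level, rose less and later. It was at 178, 183 and 166 CPM at 0 h in NT, 294, 273 and 266 at 1 h, 321, 330.0 and 316 at 2 h, 320.4, 326 and 344 at 4 h, 218, 206 and 215 at 8 h, and 154, 163 and 150.2 at 24 h. In IFT88siRNA *Zfp36l2* was at 175, 200.1 and 174 at 0 h, 239, 250.2 and 244 at 1 h, 346, 300.2 and 312 at 2 h, 315, 321 and 303 at 4 h, 211, 192 and 195 at 8 h and 159.6, 163 and 178 at 24 h, in CPM, with the 2 and 4 h libraries highest. The largest log2 change in NT was 0.92 ± 0.05 at 4 h (1.89-fold, edgeR adjusted p = 1.51e-14). At 24 h every library lay below those at 0 h, with a log2 change of −0.17 ± 0.05 (adjusted p = 0.00477, within 1.5-fold). The rise at 1 h was 0.66 on the log2 scale, but 0.58 with upper-quartile scaling, 0.47 with library totals and 0.36 in TPM, each under 1.5-fold, and that at 2 h was 0.87 but 0.58 in TPM, also under 1.5-fold.

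Because the family members were induced to different extents, their proportions shifted with time. In NT the 3 transcripts summed to 222 ± 9.2 TPM at 0 h (SD, n = 3), 551 ± 27 at 1 h, 375 ± 14 at 2 h, 363 ± 4.8 at 4 h, 279 ± 0.70 at 8 h and 225 ± 10.4 at 24 h. *Zfp36* made up 8.26% ± 0.041 of this sum at 0 h, 44.8% ± 2.9 at 1 h and 7.67% ± 0.31 at 24 h. *Zfp36l2* went from 74.0% ± 0.71 at 0 h to 38.5% ± 1.8 at 1 h and 60.7% ± 0.94 at 24 h. *Zfp36l1* was at 17.8% ± 0.73 at 0 h, 16.7% ± 1.1 at 1 h and 31.6% ± 0.91 at 24 h. The summed level at 24 h therefore lay within the replicate spread of that at 0 h, while the share of *Zfp36l1* was higher and that of *Zfp36l2* lower by far more than the spread. In IFT88siRNA the corresponding shares of *Zfp36* were 7.70% ± 0.50, 44.8% ± 3.5 and 7.24% ± 0.13, and those of *Zfp36l1* 17.7% ± 0.55, 17.6% ± 0.99 and 29.5% ± 0.82. The depth behind the TPM values is that of the same libraries, and no test was run on the shares.

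**Figure D2:**
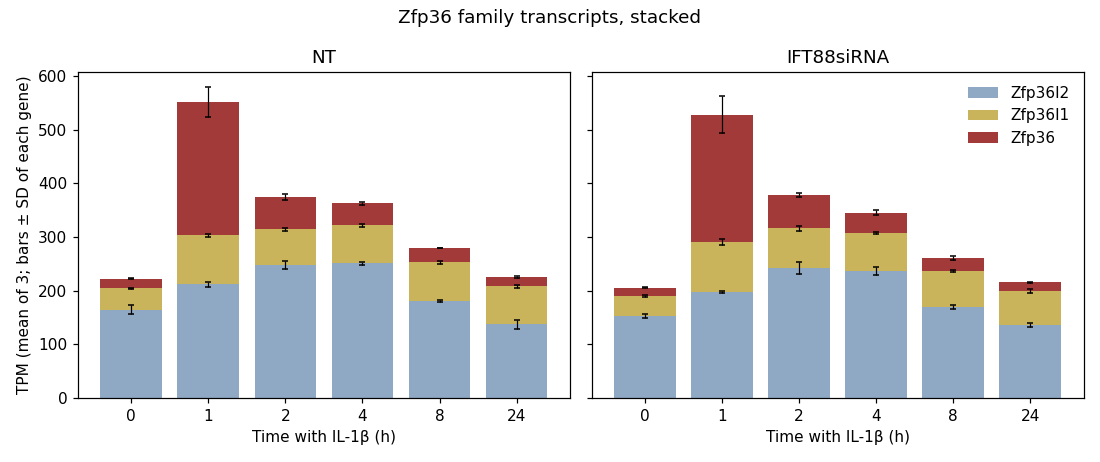
TPM of *Zfp36l2*, *Zfp36l1* and *Zfp36*, stacked, by time with IL-1β in NT (left) and IFT88siRNA (right); bars are means of 3 libraries and error bars the SD of each gene. The *Zfp36* segment is widest at 1 h and the summed height at 24 h is close to that at 0 h.

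*Zc3h12a*, encoding Regnase-1, had the lowest TPM of the 8 genes at 0 h and the largest rise. In NT it was at 5.87, 5.40 and 5.28 CPM at 0 h, 62.8, 60.7 and 74.4 at 1 h, 213, 202 and 231 at 2 h, 181, 181 and 196 at 4 h, 80.9, 74.2 and 85.0 at 8 h, and 91.5, 80.1 and 78.9 at 24 h. In IFT88siRNA it was at 4.98, 5.66 and 6.21 CPM at 0 h, 61.3, 58.0 and 64.6 at 1 h, 202, 187 and 212 at 2 h, 171, 193 and 175 at 4 h, 72.2, 67.7 and 65.4 at 8 h, and 81.0, 78.6 and 81.1 at 24 h. Every stimulated library was thus above every 0 h library, and the level was held from 8 to 24 h instead of returning to its start as that of *Zfp36* did. The log2 change in NT was 3.57 ± 0.10 at 1 h, 5.28 ± 0.09 at 2 h (38.8-fold, edgeR adjusted p = 1.85e-23), 5.08 at 4 h, 3.86 at 8 h and 3.92 ± 0.10 at 24 h (15.1-fold, adjusted p = 1.62e-20).

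The Roquin genes moved little and their small early rise did not reach 1.5-fold. *Rc3h1* in NT was at 57.9, 63.5 and 60.1 CPM at 0 h and 72.5, 90.7 and 79.1 at 2 h, a log2 change of 0.41 ± 0.08 (edgeR adjusted p = 4.68e-05). *Rc3h2* was at 78.4, 82.7 and 81.5 CPM at 0 h, 94.8, 97.3 and 106 at 2 h, and 68.9, 68.4 and 62.0 at 8 h, with log2 changes of 0.29 ± 0.05 at 2 h and −0.28 ± 0.05 at 8 h (adjusted p = 1.37e-05 and 3.85e-05). Neither gene's libraries at 2 h overlapped those at 0 h. How many of all genes did so was not counted, but 9768 of 16048 had an adjusted p under 0.05 at 2 h in NT (edgeR). Over all times, *Rc3h1* ranged over 52.7 to 90.7 CPM in NT and 52.9 to 77.0 in IFT88siRNA, and *Rc3h2* over 62.0 to 106 and 56.9 to 98.7. *Rc3h2* made up 65.8% ± 1.2 of the summed Roquin TPM at 0 h in NT and 59.8% ± 3.0 at 24 h.

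*Elavl1* and *Hnrnpd*, the general AU-binding proteins, were the steadiest with TMM scaling. With library totals in NT *Rc3h1* was steadier, its largest log2 change being 0.13, against −0.33 for *Elavl1* and −0.19 for *Hnrnpd*. *Elavl1* in NT stayed between 110.4 and 145 CPM in all 18 libraries, and its largest log2 change was −0.24 ± 0.04 at 8 h (edgeR adjusted p = 3.54e-05). *Hnrnpd* stayed between 189 and 247 CPM, and its largest log2 change was 0.28 ± 0.04 at 2 h (adjusted p = 6.80e-07). In IFT88siRNA the ranges were 115 to 149.8 CPM for *Elavl1* and 190.3 to 252 CPM for *Hnrnpd*. Changes of this size depended on scaling. Relative to TMM, where the median log2 change of all genes was between −0.0194 and −0.00773, that median was −0.295 at 2 h and −0.311 at 4 h with library totals, −0.217 and −0.219 in TPM, and −0.119 and −0.137 with upper-quartile scaling. At 2 h *Hnrnpd* was at 0.05 in TPM and −0.01 with library totals, and *Elavl1* went from 0.07 with TMM to −0.11 in TPM. At 4 h *Rc3h2* went from 0.04 to −0.22 in TPM. The falls of *Elavl1* and *Rc3h2* at 8 h kept their sign under all 5 scalings. The rises of *Rc3h1* and *Rc3h2* at 2 h kept theirs too but shrank. That of *Rc3h1* was 0.25 in TPM and 0.13 with library totals, against 0.41 with TMM. That of *Rc3h2* was 0.06 in TPM and 0.0095 with library totals, against 0.29, so it all but vanished.

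**Figure D3:**
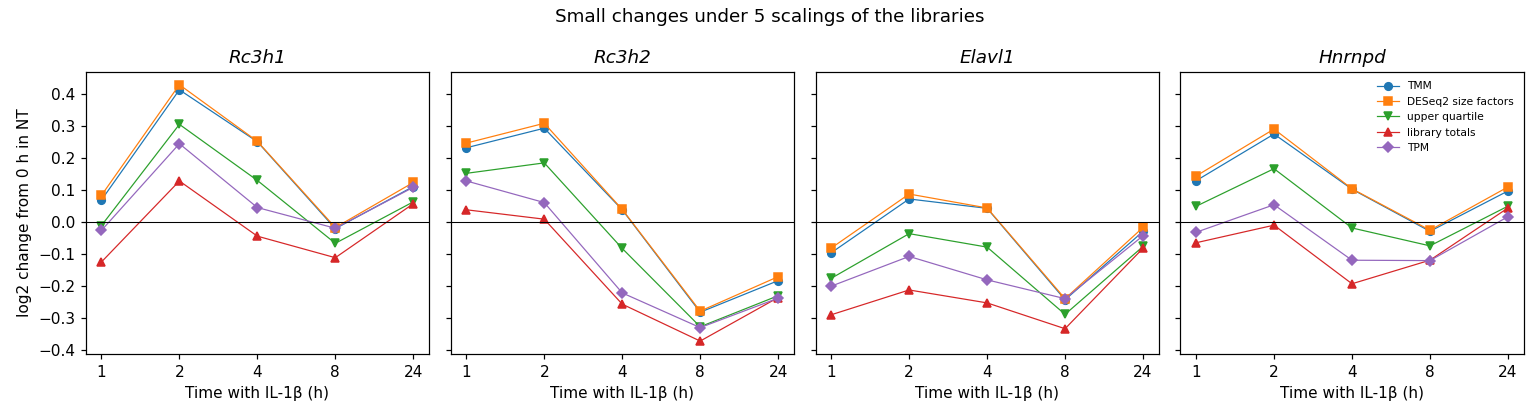
Log2 change from 0 h in NT for the 4 members that stayed within 1.5-fold, at each time with IL-1β (evenly spaced categories), under 5 scalings of the libraries. The curves shift downwards at 1 to 4 h with upper-quartile scaling, library totals and TPM, which takes several small rises below 0. Their shape changes in places, as *Hnrnpd* is highest at 2 h with TMM and at 24 h with library totals.

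Levels of different genes were compared per length, in TPM. At 0 h in NT the order was *Hnrnpd* (407 ± 2.5), *Zfp36l2* (165 ± 8.4), *Elavl1* (99.8 ± 4.4), *Zfp36l1* (39.5 ± 0.27), *Rc3h2* (20.6 ± 0.23), *Zfp36* (18.4 ± 0.80), *Rc3h1* (10.7 ± 0.61) and *Zc3h12a* (5.06 ± 0.41), all as mean ± SD of 3 libraries, with no overlap between neighbours. At 1 h *Zfp36* was behind only *Hnrnpd* at 247 ± 28, with its lowest library at 228 against 215 for the highest of *Zfp36l2*. At 2 h *Zc3h12a* was behind only *Hnrnpd* and *Zfp36l2* at 142 ± 15, and the libraries of *Zfp36l1* and *Zfp36* overlapped at 66.9 ± 3.0 and 61.2 ± 5.7. At 24 h *Zc3h12a* was at 63.7 ± 2.7 and *Zfp36* had returned to the level of *Rc3h2*, at 17.3 ± 1.4 and 17.3 ± 0.47, with overlapping libraries. In every NT condition *Hnrnpd* was the highest of the 8.

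IFT88siRNA cells raised the same 4 genes past both thresholds. Over all 16129 genes tested in IFT88siRNA, 48.2% passed the rule. The log2 change of *Zfp36* at 1 h was 4.05 ± 0.10 and that of *Zc3h12a* at 2 h was 5.16 ± 0.08 (edgeR adjusted p = 1.49e-20 and 2.59e-24). *Zfp36l1* changed by 1.51 ± 0.06 at 1 h and *Zfp36l2* by 0.80 ± 0.06 at 2 h (adjusted p = 4.95e-16 and 4.32e-11).

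Whether the response to IL-1β differed between the siRNA groups was tested as 5 differences in the change from 0 h together. No member passed (edgeR joint adjusted p from 0.117 for *Zfp36l2* to 0.964 for *Rc3h2*), against 1.20% of all 16710 genes tested. By joint adjusted p alone, 5.53% of all genes passed. None of the 40 single values had an adjusted p under 0.05, while 4 had an unadjusted p under 0.05 (*Elavl1* at 1 and 2 h, *Zfp36l1* at 2 h and *Zfp36l2* at 1 h). For these single values the share over all genes was not counted. DESeq2 also called 0. The difference in response for *Zfp36* at 1 h was 0.09 with a 95% interval from −0.17 to 0.35, and that for *Zc3h12a* at 2 h was −0.12 from −0.41 to 0.17. The difference of *Zfp36l2* at 1 h was −0.24, with an interval from −0.40 to −0.08 (adjusted p = 0.102).

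The direct comparison of IFT88siRNA with NT asked whether depletion of *Ift88* altered the level of the regulators at any time. With the 6 time points tested together, 0 of 8 members passed both thresholds, against 5.19% of 16710 genes. *Rc3h2* and *Zfp36l2* had joint adjusted p-values under 0.05 (0.0088 and 0.0336, edgeR) with differences below 1.5-fold, where 31.8% of all genes had such a p. At 0, 1, 2, 4, 8 and 24 h singly, 2.23%, 2.66%, 0.496%, 0.432%, 0.692% and 1.15% of all genes were called, and no member was. Among the 48 single differences, 3 had an adjusted p under 0.05 and 11 had an unadjusted p under 0.05, the same 11 whose 95% interval left out 0. Over all genes, 2.76% to 19.5% had an adjusted p under 0.05 at a time point and 17.2% to 32.4% an unadjusted one, and the 3 and 11 of 48 lie within those ranges. DESeq2 also called 0. The widest limits of the 48 intervals were −0.37 and 0.28 on the log2 scale, that is 1.29-fold lower and 1.21-fold higher in IFT88siRNA. Each interval holds for 1 difference with TMM scaling, not for all 48 jointly. Over the other settings and libraries left out, the difference of *Zc3h12a* at 8 h in the fits over time went from −0.35 to −0.18. With TMM these data bound the single differences more closely than the threshold of 1.5-fold, but do not show that the levels were equal.

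**Figure D4:**
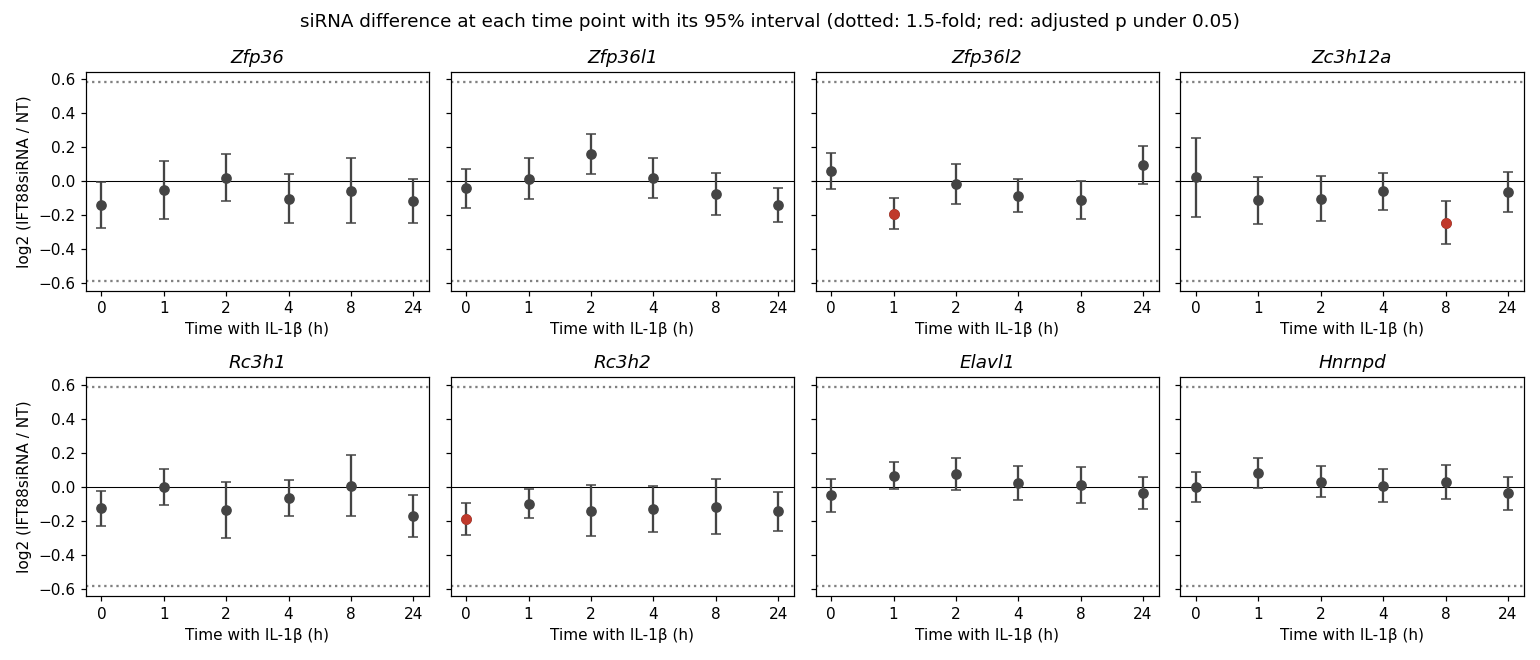
Log2 difference of IFT88siRNA from NT for each regulator at 6 times with IL-1β (evenly spaced categories), with 95% intervals from edgeR fits of 3 against 3 libraries. Dotted lines mark 1.5-fold and red points the 3 differences with an adjusted p under 0.05; every interval lies inside the dotted lines.

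The 3 differences were all lower in IFT88siRNA. *Rc3h2* at 0 h was at 73.3, 68.2 and 71.2 CPM against 78.4, 82.7 and 81.5 in NT, a log2 difference of −0.19 ± 0.04 (edgeR adjusted p = 0.00388). *Zfp36l2* at 1 h was at 239, 250.2 and 244 CPM against 294, 273 and 266, a difference of −0.19 ± 0.04 (adjusted p = 0.00561). *Zc3h12a* at 8 h was at 72.2, 67.7 and 65.4 CPM against 80.9, 74.2 and 85.0, a difference of −0.24 ± 0.06 (adjusted p = 0.0416). In each case the groups did not overlap, as was so for 33.5% of genes at 0 h, 33.9% at 1 h and 23.7% at 8 h. *Rc3h2* was lower in IFT88siRNA at 6 of 6 time points, by log2 differences from −0.19 to −0.10. *Rc3h1*, *Zfp36* and *Zc3h12a* were lower at 5 of 6, *Zfp36l2* at 4, *Zfp36l1* at 3, and *Elavl1* and *Hnrnpd* at 2. How many of all genes were lower at as many time points was not counted, so these counts only describe the members. *Zfp36* at its peak did not separate the groups, with a difference of −0.05 ± 0.08 and a 95% interval from −0.22 to 0.12 (adjusted p = 0.689).

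Other genes of mRNA decay were taken from a list of 78, of which 75 were tested. Of these, 19 (25.3%) were called with IL-1β in NT, below the 50.0% of all genes: 11 rose only, 7 fell only and 1 did both at different times. Of all 16048 genes tested, 3065 rose only, 3644 fell only and 1308 did both. By role, 2 of 18 deadenylases and adaptors, 3 of 16 decapping and 5′ decay genes, 2 of 15 exosome and 3′ decay genes, 5 of 17 other RNA-binding regulators and 7 of 9 genes signalling to the regulators were called. The median size of the largest log2 change was 0.35 over the list and 0.65 over all genes. *Btg2*, an adaptor that stimulates deadenylation, changed by 2.92 ± 0.05 on the log2 scale at 1 h, from 138 ± 6.7 to 1047 ± 9.4 CPM (SD, n = 3). *Dusp1*, a phosphatase that switches off the p38 kinase acting on tristetraprolin, changed by 2.90 ± 0.08 at 1 h, from 36.2 ± 1.4 to 271 ± 41 CPM. *Arid5a*, which protects *Il6* mRNA against Regnase-1, changed by 2.22 ± 0.07 at 4 h. Among called genes with a mean of at least 50 counts, the largest falls were those of *Dcp1b*, a decapping cofactor (−0.999 ± 0.18 at 2 h), *Tob1*, a deadenylation adaptor (−0.79 ± 0.05 at 2 h), and *Zc3h12b*, a relative of Regnase-1 (−0.74 ± 0.14 at 2 h). Between IFT88siRNA and NT, 0 of the 75 passed both thresholds, against 5.19% of all genes, and 24 had a joint adjusted p under 0.05 (edgeR), against 31.8% of all genes.

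Transcripts known as targets of these regulators were taken from a list of 28, of which 24 were tested. In NT 23 of the 24 (95.8%) rose with IL-1β and none fell past both thresholds. Of all 16048 genes tested, 3065 rose only, 3644 fell only and 1308 did both. *Nos2*, which makes nitric oxide, was at 0.014 ± 0.024 CPM before IL-1β and 348 ± 37 CPM at 4 h, *Lcn2*, an iron-binding acute-phase gene, from 0.47 ± 0.087 to 1199 ± 85 CPM at 24 h, and the chemokine *Cxcl2* from 0.029 ± 0.025 to 58.2 ± 4.3 CPM at 1 h. Between IFT88siRNA and NT, 14 of the 24 (58.3%) passed over the 6 time points together, against 5.19% of all genes. The genes called among all numbered 868, with the largest fitted difference lower in IFT88siRNA for 637 and higher for 231. Among the 14 targets the largest fitted difference was lower in IFT88siRNA for 13 and higher for *Tnf*. For *Tnf* and *Cxcl2* it fell at 0 h, where both were near 0 counts (edgeR adjusted p = 0.441 and 0.431). Their direction in this count is therefore uncertain. *Nos2* at 2 h was at 5.70 ± 3.2 CPM in IFT88siRNA and 16.7 ± 8.4 CPM in NT, a log2 difference of −1.52 ± 0.25, and *Csf3*, a neutrophil growth factor, at 8 h was at 3.45 ± 1.0 and 9.64 ± 1.2 CPM, a difference of −1.51 ± 0.17 (edgeR adjusted p = 9.20e-05 and 1.13e-07). *Cxcl2* at 1 h was at 21.9 ± 3.2 CPM against 58.2 ± 4.3, and *Tnf* at 4.97 ± 1.2 against 12.3 ± 0.95. The target list was chosen with results of these libraries known, so its direction is no independent evidence, and no relation between the regulators and the targets was tested.

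As a description over the 36 libraries, which share conditions, the genes outside the 8 whose log2 CPM was most like that of *Zfp36* were *Ier2* (Pearson r = 0.990), *Nr4a1* (0.986) and *Cited2* (0.984), among 12069 genes with a mean of at least 50 counts. The genes most like *Zc3h12a* were *Arid5a* (0.981), *Nfe2l1* (0.969) and *Ccl2* (0.960). Within the 8, the closest pair was *Zfp36l1* and *Zc3h12a* (0.838), and *Zfp36* and *Zc3h12a*, with their different peaks, had 0.385.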

How the data were processed

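RNA from 36 libraries (12 conditions, 3 replicates each) was sequenced by the authors as poly(A) RNA, aligned to GRCm38 with HISAT2 2.1.0 and counted per gene with featureCounts (Subread 1.6.3) at default settings, without regard to strand. The authors deposited these counts as whole numbers, without normalization, and a second table of TPM values made with Salmon 0.9.1 from the same reads. The labels give 50 nM siRNA. Lanes per library are not given in the sources used here. Depth sets a lower limit on the spread through counting error, and reads carry no molecular identifiers.

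Counts were tested in R 4.3.3 with edgeR 4.0.16 (TMM, filterByExpr, quasi-likelihood F-tests, two-sided, Benjamini-Hochberg adjustment over all genes tested). The 5 times were tested together against 0 h within the 18 NT or the 18 IFT88siRNA libraries, the 6 siRNA differences and the 5 differences in response in all 36, and each time point singly in 6. A call needed an adjusted p under 0.05 and a fold over 1.5. SE is the size of the log2 change divided by the square root of F. CPM used TMM factors, with a prior count of 2 for correlations. Alternatives used DESeq2 1.42.0, limma 3.58.1 on log2(TPM + 1) or log2(TPM + 0.1), other scalings, no filter, no fold threshold, a block and single libraries left out. The scripts were tested on simulated data. Plots used Python 3.11.15 and matplotlib 3.10.9.

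The members and gene lists were chosen with earlier results of these data known. Besides the 8 members and *Ift88*, genes were named by rule: per list with a mean of at least 50 counts, the 3 largest rises and 3 largest falls in NT and the 4 largest siRNA differences, and for *Zfp36* and *Zc3h12a* the 3 most correlated genes. Fitted folds of targets near 0 counts at 0 h are not given. Same-numbered libraries of the siRNA groups had correlations of their deviations from −0.133 to 0.223, with 2 of 18 over 0.1, so numbers were not taken to pair samples. All replicates differed by more than sampling noise (lowest chi-square per degree of freedom 1.71). Gene positions and 3′ UTRs came from GENCODE vM21.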

Additional observations from a re-analysis of the deposited data

Results flagged for a closer look

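A pair of the genes named in the report passed a test of the difference in the response to IL-1β between the siRNA groups. This pair passed both thresholds, as did 1.20% of all 16710 genes tested. Looked at were the 8 regulators and the genes named by rule from the decay and target lists. Those list genes had been picked for large changes in the same libraries. The edgeR test took the 5 time points together. *Dusp1* had an adjusted p of 0.00105. Its log2 change from 0 h at 1 h was 3.66 ± 0.11 (SE) in IFT88siRNA and 2.90 ± 0.08 in NT, a difference of 0.76 ± 0.14 (edgeR adjusted p at this time 0.00123). *Dusp1* was at 395 ± 79 CPM (SD, n = 3) in IFT88siRNA and 271 ± 41 CPM in NT at 1 h, after 31.2 ± 1.5 and 36.2 ± 1.4 CPM at 0 h. *Cxcl2* had an edgeR adjusted p of 0.0406, with no single time point below 0.752. It was also named for its siRNA difference in the same libraries, so its pass is no independent evidence. *Cxcl2* was at 0 CPM in all 3 IFT88siRNA libraries and at 0.029 ± 0.025 CPM in NT at 0 h. Its fitted change from 0 h therefore depends on the prior count and is given neither as a size nor as a direction. At 1 h *Cxcl2* was at 21.9 ± 3.2 CPM in IFT88siRNA and 58.2 ± 4.3 CPM in NT. None of the 8 regulators passed this test.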

How the results depend on the processing

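The counts of members called (4 in NT, 4 in IFT88siRNA, 0 for the siRNA difference over time, at single time points and for the response) stayed the same with DESeq2, DESeq2 size factors, upper-quartile scaling, no filter, TPM, 1 model of all 36 libraries where run, and each library left out (4 to 4, 4 to 4, 0 to 0, 0 to 0 and 0 to 0). With library totals, a scaling chosen after seeing the data, the count in IFT88siRNA was 3, and the others stayed the same. Without the fold threshold the counts were 8, 8, 2, 3 and 0, and those of the decay list 73 in NT and 24 for the siRNA difference, where 88.4% of all genes passed in NT, 86.0% in IFT88siRNA and 31.8% for the siRNA difference. The decay list in NT gave 31 genes with log2(TPM + 0.1), 33 with library totals, and 18 to 20 with single libraries left out. Its siRNA difference gave 1 gene with DESeq2 size factors, no filter, the replicate block, and all 3 TPM settings, and 0 to 1 with single libraries left out; the cause was not tested. That gene was *Elavl3* or *Malt1* for the settings, and *Elavl3*, *Dusp1*, *Mapk11* or *Map2k6* for 13 of 36 libraries left out (all 6 at 1 h, NT 0 h replicate 3, NT 2 h replicate 2, NT 24 h replicates 1 and 3, and IFT88siRNA replicate 3 at 2, 4 and 8 h). The target list gave 23 to 24 in NT and 13 to 14 for the siRNA difference with libraries left out.

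The replicate block otherwise changed no call (4, 4, 0, 0 and 0 members, and 19 and 23 list genes in NT), and 5 of 18 libraries correlated best with their own number. Small changes reversed sign in TPM or with library totals, where the median of all genes also shifts: *Elavl1* in IFT88siRNA at 2 h was −0.026 in all 3 TPM settings and −0.065 with library totals, against 0.20, and *Hnrnpd* in NT at 2 h was −0.0093 with library totals, against 0.28. *Zfp36l2* in IFT88siRNA at 2 h was 0.53 with library totals, under 1.5-fold. Of 256 single-gene values under the other settings 239 kept both their direction and their side of the threshold, as did all 576 with 1 library left out. These values take each gene and comparison only at the time of its largest change in the main fit. Small changes at other times are not among them, such as *Rc3h2* in NT at 4 h, at 0.04 with TMM and −0.22 in TPM.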

Other observations

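Some decay genes outside the naming rule, chosen after their values were seen, had a peak at 4 h in both siRNA groups. *Dcp2*, the catalytic subunit of the decapping enzyme, was at 103 ± 5.7 CPM (SD, n = 3) at 0 h, 134 ± 9.2 at 2 h, 331 ± 5.0 at 4 h and 108 ± 7.5 at 24 h in NT, a log2 change of 1.70 ± 0.06 (SE) at 4 h (edgeR adjusted p = 1.22e-18). In IFT88siRNA the change of *Dcp2* at 4 h was 1.62 ± 0.05 (adjusted p = 4.31e-18). *Xrn1*, the 5′ to 3′ exonuclease that degrades decapped mRNA, was at 82.4 ± 4.7 CPM at 0 h, 80.6 ± 6.3 at 2 h, 221 ± 10 at 4 h and 93.8 ± 8.1 at 8 h in NT. Its change at 4 h on the log2 scale came to 1.43 ± 0.06 (NT) and 1.32 ± 0.07 (IFT88siRNA) (adjusted p = 2.99e-16 and 2.68e-14).

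In NT, 3065 of all 16048 genes tested rose only with IL-1β and 3644 fell only. Of the 9 genes signalling to the regulators, 6 rose only and 1 fell only. They did so at different times, and those given here were also chosen after their values were seen. *Malt1*, a protease that cleaves Regnase-1 and Roquin, was at 16.1 ± 0.88 CPM at 0 h and 67.6 ± 4.9 at 2 h in NT, a log2 change of 2.07 ± 0.08 (edgeR adjusted p = 2.49e-17). *Mapkapk2*, the kinase that phosphorylates tristetraprolin, was at 142 ± 1.3 CPM at 0 h, 347 ± 8.7 at 2 h and 217 ± 16 at 24 h, with log2 changes of 1.28 ± 0.05 and 0.61 ± 0.05 (adjusted p = 1.89e-17 and 6.23e-11). *Mapkapk3*, a related kinase, had its largest change at 4 h, 0.95 ± 0.06 on the log2 scale. *Map2k6*, a kinase upstream of p38, was at 1.49 ± 0.44 CPM at 0 h and 0.39 ± 0.16 at 4 h, a log2 change of −1.94 ± 0.31 (edgeR adjusted p = 8.79e-06). *Elavl3*, a relative of HuR from the decay list with few counts, was at 1.07 ± 0.16 CPM at 0 h and 0.34 ± 0.18 at 1 h, a log2 change of −1.64 ± 0.40 (edgeR adjusted p = 0.00123).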
